A study of Mus musculus with 5 samples.

Results

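The nuclear pore complex is the channel through which proteins and RNAs cross the nuclear envelope. It is built from nucleoporins arranged in stacked rings, with filaments on the cytoplasmic face and a basket on the nuclear face. Larger cargo is carried by karyopherins, of which importins bring cargo in and exportins take it out, and the GTPase Ran sets the direction of both. In animal cells the pores and the envelope are taken apart at mitosis and rebuilt in the daughter nuclei, and the pores of a growing nucleus are added between divisions. The genes described here are those of the nucleoporins, importins and exportins, together with Ran, its GTPase-activating protein gene Rangap1 and its binding protein gene Ranbp1. They were taken by a rule on the gene symbol, itself set with earlier results of these data known, and made up 51 of the 52459 rows of the deposited expression table.

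Messenger RNA was measured in mouse pancreatic cancer cells sorted by autophagy flux, giving 2 libraries of cells with high flux (AThi) and 3 libraries of cells with low flux (ATlo). Both populations came from organoids of the HY15549 line, with the strain background C57BL/6, grown in Matrigel in serum-supplemented medium, and both carried the GFP-LC3-RFP reporter, which reads autophagy flux from the ratio of green to red signal and on which the sort was made. All libraries thus stem from 1 line, and nothing in the labels ties each replicate to a culture of its own. The spread that a p-value is set against here may therefore be technical. The comparison asks how transcript levels of the transport machinery differ between cells with high and low autophagy flux.

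Values are given as deposited, in FPKM, which counts fragments by transcript length and library depth. The depth read from the low values was 27.6 M and 44.9 M reads in the AThi libraries and 36.0 M to 42.1 M reads in the ATlo libraries. Of 11397 genes that averaged 1 FPKM or more, limma called 51.6% at an adjusted p under 0.05, made up of 29.4% lower and 22.2% higher in AThi, and with upper-quartile scaling these were 2583 genes lower and 3508 higher, against 3355 lower and 2529 higher as deposited. Ductal and epithelial keratin genes were abundant, with Krt19 at 1395 and 1605 FPKM in AThi and 1525 to 1842 FPKM in ATlo, while Epcam lay between 1.51 and 3.57 FPKM and Cldn4 at 0 or up to 0.15 FPKM. Among lists of 6 acinar, 6 endocrine and erythroid, 5 endothelial, 7 fibroblast and 8 immune markers, no gene averaged 1 FPKM or more other than Cd68, Cela1 and Hba-a1. Among their defining genes, Ptprc was at 0.04 to 0.05 FPKM, and Col1a2, Kdr, Cpa1 and Ins1 were at 0 in every library. The acinar gene Cela1 was at 10.2 to 12.9 FPKM across all 5 libraries. Hba-a1, a haemoglobin gene, had 6.88 and 6.33 FPKM in AThi and 6.48, 0.89 and 1.23 FPKM in ATlo. Cd68, a lysosomal gene of macrophages, had 8.68 and 14.7 FPKM in AThi and 4.31 to 4.55 FPKM in ATlo. The part of these in the results was not tested.

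Genes of the transport machinery were lower in AThi cells across nearly every part of it. Of the 51 members, 46 were abundant enough to be tested, and 39 of these fell in AThi, 0 rose and 7 did not pass. This is 84.8% of the members tested, where 29.4% of all genes tested were called lower, 22.2% higher and 51.6% either way, and it is read as a description. Their median log2 fold change was -0.49, against -0.03 over all genes tested. Fold changes here are differences in log2(FPKM + 0.5), AThi minus ATlo, given with their standard error (SE). Falls of at least 2-fold were found in 7 members, or 15.2% of those tested, against 4.17% of all genes. In 41 members both AThi libraries lay below all 3 ATlo libraries, which was so for 38.4% of all genes, and in 0 members did both lie above them, against 31.9% of all genes. Summed over the 51 members, FPKM came to 664 and 624 in the AThi libraries and to 939, 997 and 1049 in the ATlo libraries. In relation to all FPKM of a library this was 0.228% and 0.216% in AThi and 0.311% to 0.356% in ATlo. In bulk RNA, fewer cells that make a transcript and less of it per cell cannot be told apart.

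**Figure D1:**
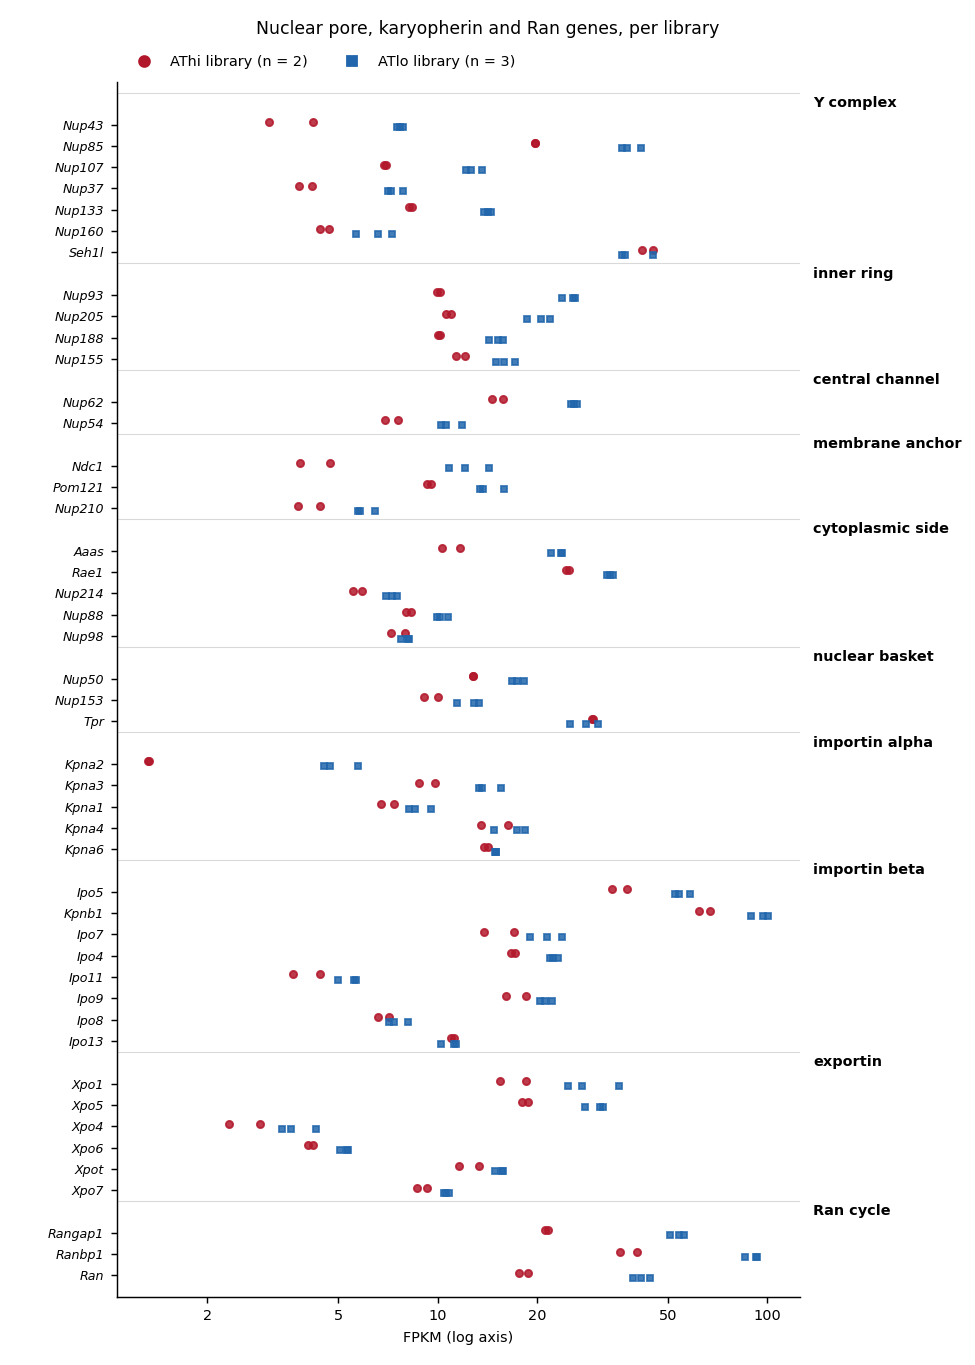
Level of each of the 46 members tested in every library, in FPKM on a log axis, grouped by role, with circles for the 2 AThi and squares for the 3 ATlo libraries. The circles lie left of all squares in 41 genes, with the widest gap in Kpna2, and overlap the squares in Seh1l, Nup98, Tpr, Kpna4 and Ipo13.

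Genes of cell division moved with the same groups. All 25 genes of a G2/M list, which act in mitosis, were lower in AThi, with summed levels of 61.5 and 66.4 FPKM in AThi and 504 to 692 FPKM in ATlo. All 24 genes of a list for S phase, when DNA is copied, were lower as well, at 168 and 151 FPKM in AThi and 502 to 592 FPKM in ATlo. Of 21 immediate-early and dissociation genes, 15 were higher and 1 lower, with summed levels of 4347 and 6838 FPKM in AThi and 1748 to 2585 FPKM in ATlo. The part of these in the levels of the transport genes was not tested. Their median changes of -2.93 and -1.58 (G2/M and S phase) lay below that of every transport group, of which the Ran genes came closest with a median of -1.24. Within ATlo, replicate 3 had the highest level of 35 of the 46 members tested and also the highest G2/M and S phase sums. Within AThi, replicate 1 had the higher level of 38 of the 46, and it had the higher S phase sum and the lower G2/M sum of the pair. The share of all genes tested that were highest in these libraries was not counted. The order is therefore not read as a trait of the members.

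**Figure D2:**
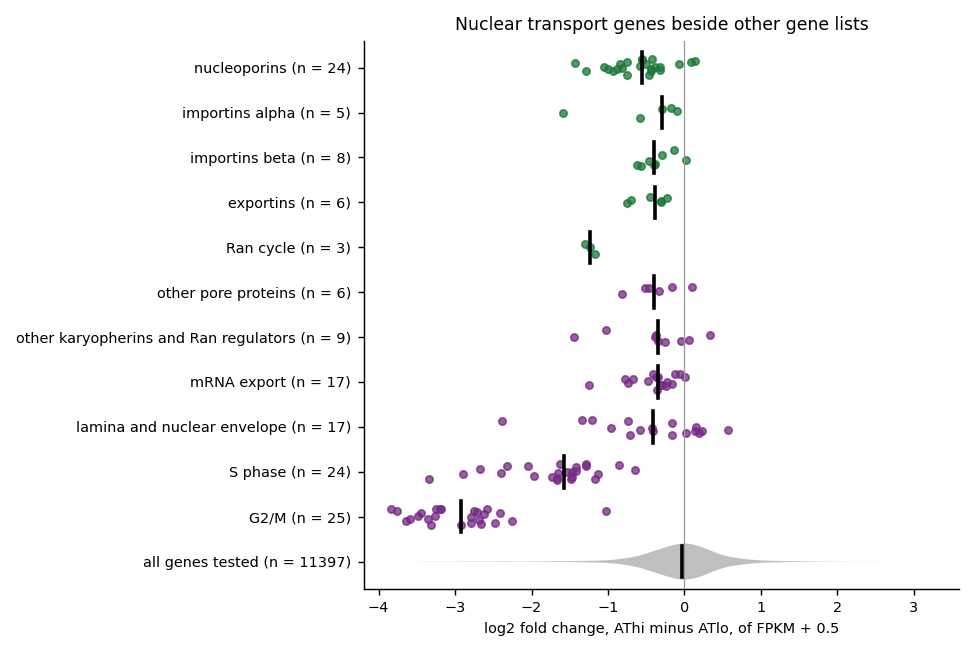
Log2 fold change of FPKM + 0.5, AThi minus ATlo, of each gene (points) in the transport groups, in other gene lists and over all 11397 genes tested (grey shape), with black bars at the medians. The medians of the transport groups lie between that of all genes, -0.03, and those of S phase and G2/M, -1.58 and -2.93.

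The largest falls, in order of size, were in Kpna2, Ndc1, Rangap1, Nup93, Ranbp1 and Ran, and their promoters are shown for this reason. The sequences are RefSeq's on GRCm38.p6, each 300 bases running from 250 bases before the annotated start site to 50 from it on, read 5′ to 3′ on the gene's strand. They lie at chr11:106999476-106999775 (Kpna2, minus strand), chr4:107367797-107368096 (Ndc1, plus strand), chr15:81729870-81730169 (Rangap1, minus strand), chr8:94214314-94214613 (Nup93, plus strand), chr16:18248645-18248944 (Ranbp1, minus strand) and chr5:129019906-129020205 (Ran, plus strand). Capitals mark matches on either strand to CCAAT (the CCAAT box), TTTGAA or TTTAAA (forms of CHR, the cell cycle genes homology region), CACGTG (an E-box) and TTCCCGC or TTGGCGC (E2F-type). TTTAAA and CACGTG read the same on both strands, and no 2 marked matches overlap.
Kpna2: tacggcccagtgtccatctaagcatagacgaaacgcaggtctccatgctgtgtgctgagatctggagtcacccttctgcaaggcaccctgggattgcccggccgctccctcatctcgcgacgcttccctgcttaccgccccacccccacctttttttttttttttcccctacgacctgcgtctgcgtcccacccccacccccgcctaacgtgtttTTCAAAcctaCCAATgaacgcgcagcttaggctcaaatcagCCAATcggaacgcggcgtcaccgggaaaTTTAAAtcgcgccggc
Ndc1: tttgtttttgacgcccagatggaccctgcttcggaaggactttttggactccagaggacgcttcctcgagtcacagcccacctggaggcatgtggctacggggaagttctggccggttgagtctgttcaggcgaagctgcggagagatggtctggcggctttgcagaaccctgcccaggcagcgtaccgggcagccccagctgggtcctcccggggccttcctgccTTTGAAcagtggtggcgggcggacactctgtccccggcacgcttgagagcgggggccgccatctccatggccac
Rangap1: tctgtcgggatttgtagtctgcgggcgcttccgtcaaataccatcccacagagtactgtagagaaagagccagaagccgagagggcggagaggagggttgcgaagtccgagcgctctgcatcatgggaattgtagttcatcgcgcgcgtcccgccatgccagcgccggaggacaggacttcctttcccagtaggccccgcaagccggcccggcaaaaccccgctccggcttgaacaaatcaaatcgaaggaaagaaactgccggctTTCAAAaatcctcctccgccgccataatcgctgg
Nup93: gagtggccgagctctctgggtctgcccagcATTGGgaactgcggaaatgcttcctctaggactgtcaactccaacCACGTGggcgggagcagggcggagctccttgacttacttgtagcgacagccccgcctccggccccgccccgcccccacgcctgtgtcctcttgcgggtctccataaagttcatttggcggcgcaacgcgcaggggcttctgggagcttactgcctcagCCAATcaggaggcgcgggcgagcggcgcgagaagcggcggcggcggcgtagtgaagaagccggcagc
Ranbp1: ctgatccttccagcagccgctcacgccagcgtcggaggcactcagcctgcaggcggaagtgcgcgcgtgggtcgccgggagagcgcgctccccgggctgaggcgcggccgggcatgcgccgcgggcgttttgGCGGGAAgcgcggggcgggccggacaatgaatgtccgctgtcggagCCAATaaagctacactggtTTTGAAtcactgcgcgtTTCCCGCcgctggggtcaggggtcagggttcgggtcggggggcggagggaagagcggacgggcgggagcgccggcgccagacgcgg
Ran: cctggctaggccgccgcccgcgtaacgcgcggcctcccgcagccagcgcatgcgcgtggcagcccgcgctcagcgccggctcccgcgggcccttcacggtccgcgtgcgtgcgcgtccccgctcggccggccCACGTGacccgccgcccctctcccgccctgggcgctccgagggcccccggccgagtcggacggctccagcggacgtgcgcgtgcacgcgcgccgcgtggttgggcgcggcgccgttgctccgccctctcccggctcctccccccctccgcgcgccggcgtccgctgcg
The Kpna2 promoter held a pair of CCAAT matches and both forms of CHR within 35 bases of the start site. Ranbp1 held a CCAAT match, a CHR match and a pair of E2F-type matches between 118 and 36 bases before the start. Ndc1 and Rangap1 each held a single CHR match, Ran a single E-box, and Nup93 a pair of CCAAT matches and an E-box. The start site used for Rangap1 lies inside the gene, whose 5′ end in GENCODE M21 is at chr15:81745530. The bases around that end were not searched. A match is a description of the letters, not a bound site.

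**Figure D3:**
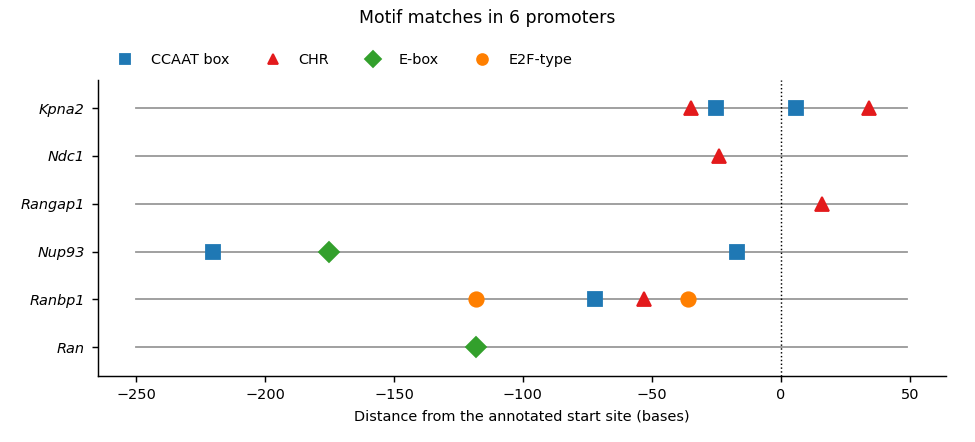
Matches to the searched motifs in the promoters of 6 members with the largest falls, by distance of the first matched base from the annotated start site in bases. Kpna2 and Ranbp1 each hold 4 matches, the most of the 6, and Ndc1, Rangap1 and Ran hold 1 each.

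Promoters were found for 39 of the 48 members with a role in transport. CCAAT stood in 19 of the 39, or 48.7%, against 37.4% of 32817 promoters in the table. The CACGTG E-box stood in 7 of 39, or 17.9%, against 7.1%. Either E2F-type form stood in 5 of 39, or 12.8%, against 6.8%, and either CHR form in 12 of 39, or 30.8%, against 27.6%. Each of the 39 members entered these counts with a single promoter. The 32817 promoters were not limited to a single promoter per gene or to genes tested here. The shares are therefore unlike measures, and no excess of a motif among the members is read from them. Of the promoters of members that did not pass, those of Tpr and Nup98 held both CCAAT and TTTGAA, that of Kpna4 held CCAAT, and those of Ipo8 and Ipo13 held none of the 6 motifs. None was found either in those of Nup160, Aaas, Xpo5, Nup205 and Nup153, which fell.

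The Y complex, the scaffold of the outer rings, was lower in AThi in 6 of the 7 genes that the symbol rule took in. Sec13, also a subunit, lies outside the rule and is given with the other pore proteins. Nup43, a small subunit at the arm of the Y, had 4.18 and 3.08 FPKM in AThi and 7.51, 7.84 and 7.68 FPKM in ATlo, a log2 fold change of -0.998 ± 0.12 (SE, adjusted p = 0.000625). Nup85, also in an arm of the Y, had 19.8 and 19.7 FPKM in AThi and 36.2, 37.5 and 41.4 FPKM in ATlo, or -0.94 ± 0.07 (SE, adjusted p = 0.000141). In both genes every AThi library lay far below every ATlo library. Nup107, Nup37 and Nup133 changed by -0.84, -0.82 and -0.75, and Nup160 by -0.47.

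Seh1l was the exception among the 7 Y complex genes and, on average over the libraries, the most abundant of them. Its product is shared with GATOR2, a complex that relays amino acid supply to mTORC1, the growth kinase that restrains autophagy. The product of Sec13 is shared with GATOR2 as well, and Sec13 fell, with a log2 fold change of -0.81. A part of GATOR2 in the level of Seh1l was not tested. Seh1l was at 45.0 and 41.8 FPKM in AThi and 36.2, 37.1 and 45.0 FPKM in ATlo. AThi replicate 1 and ATlo replicate 3 were level, while both AThi libraries lay above the other ATlo libraries. The log2 fold change was 0.14 ± 0.10 (SE, adjusted p = 0.287), with a 95% interval of -0.10 to 0.39. Without ATlo replicate 3 it was 0.24, with an adjusted p of 0.0446. With the replicate number as a block it was also 0.24, with an adjusted p of 0.037. ATlo replicate 3 has no partner and does not inform the group difference in that fit. The log2 differences between same-numbered libraries were 0.31 for replicate 1 and 0.17 for replicate 2. All of these rest on the same libraries and do not add to each other. Shares were taken of the summed FPKM of the 7 genes, without Sec13. Of this sum Seh1l made up 48.5% and 47.4% in AThi and 30.0% to 32.9% in ATlo. Nup85 made up 21.3% and 22.4% in AThi and 30.3% to 30.5% in ATlo.

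The inner ring, which holds the central channel in place, fell in all 4 genes tested. Nup93, a linker on which other inner ring proteins assemble, was its most abundant gene on average over the libraries. It had 9.95 and 10.1 FPKM in AThi and 23.8, 26.1 and 25.7 FPKM in ATlo, or -1.28 ± 0.07 (SE, adjusted p = 4.25e-05). The AThi level was thus 39.9% of that in ATlo. Nup205, one of the large scaffold proteins that bind Nup93, had 10.95 and 10.6 FPKM in AThi and 18.6, 20.6 and 21.9 FPKM in ATlo, or -0.89 ± 0.08 (SE, adjusted p = 0.000244). Nup188, its paralogue, changed by -0.55 and Nup155, which lies near the membrane, by -0.43. With these unequal falls, Nup93 made up 22.8% and 23.7% of the summed inner ring FPKM in AThi and 31.5% to 33.1% in ATlo.

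The last inner ring gene, Nup35, was below the filter, at 0.51 and 0.62 FPKM in AThi and 0.92, 0.96 and 1.11 FPKM in ATlo. A protein-coding gene listed as Gm4353 matches 99.2% of its transcript at 99.6% identity, so reads of both can be lost or shared and the level is uncertain. Gm4353 itself was at 0.88 and 0.57 FPKM in AThi and 1.10, 1.32 and 1.44 FPKM in ATlo.

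Both channel genes that the rule took in fell. Another channel gene, Nup58, had no row under that symbol. Its row stands under the earlier symbol Nupl1, which lies outside the rule and is given with the other pore proteins. Nupl1 had 6.01 and 5.71 FPKM in AThi and 6.65, 7.72 and 8.19 FPKM in ATlo. Nup62, a phenylalanine-glycine repeat nucleoporin of the transport channel, had 14.6 and 15.8 FPKM in AThi and 25.9, 25.5 and 26.4 FPKM in ATlo, or -0.75 ± 0.06 (SE, adjusted p = 0.000181). Nup54, its partner in the channel, changed by -0.56.

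All 3 genes of the membrane anchor fell, most of all Ndc1. Its product spans the pore membrane and is needed to insert pores. Ndc1 had 4.71 and 3.82 FPKM in AThi and 10.8, 12.1 and 14.3 FPKM in ATlo, a log2 fold change of -1.43 ± 0.13 (SE, adjusted p = 0.000252). Only 2.27% of all genes tested had a more negative change. Pom121, also a membrane-spanning nucleoporin and the most abundant gene of the group, had 9.58 and 9.29 FPKM in AThi and 13.7, 13.4 and 15.9 FPKM in ATlo, or -0.57 ± 0.09 (SE, adjusted p = 0.0017). Nup210, the third membrane-spanning nucleoporin, changed by -0.51.

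On the cytoplasmic side 4 of the 5 genes that the rule took in fell. Ranbp2 and Gle1, outside the rule, did not pass and are given with the other pore proteins. Aaas encodes ALADIN, which is held at the pore by the Ndc1 protein. It had 10.3 and 11.7 FPKM in AThi and 22.2, 23.9 and 23.7 FPKM in ATlo, or -1.05 ± 0.08 (SE, adjusted p = 0.000106). Rae1, an mRNA export factor that binds Nup98, was at 25.1 and 24.5 FPKM in AThi and 33.4, 32.6 and 34.0 FPKM in ATlo, or -0.42 ± 0.06 (SE, adjusted p = 0.00118). The filament proteins Nup214 and Nup88, which form a complex, changed alike, by -0.32 each. Nup98 encodes a repeat nucleoporin and, from the same precursor protein, a subunit of the Y complex. It did not pass, at -0.07 with a 95% interval of -0.24 to 0.09, and under upper-quartile scaling its sign turned, at 0.03.

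In the nuclear basket, Nup50 and Nup153 changed by -0.44 and -0.38, and the call of Nup153 was lost without AThi replicate 2 (adjusted p 0.0712). Tpr, the protein that makes up the basket's filaments, was the most abundant of the 3. It was at 29.7 and 29.5 FPKM in AThi and 25.2, 28.3 and 30.6 FPKM in ATlo. Both AThi values lay within the ATlo range, with a log2 fold change of 0.08 ± 0.09 (SE, adjusted p = 0.467) and a 95% interval of -0.13 to 0.29.

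**Figure D4:**
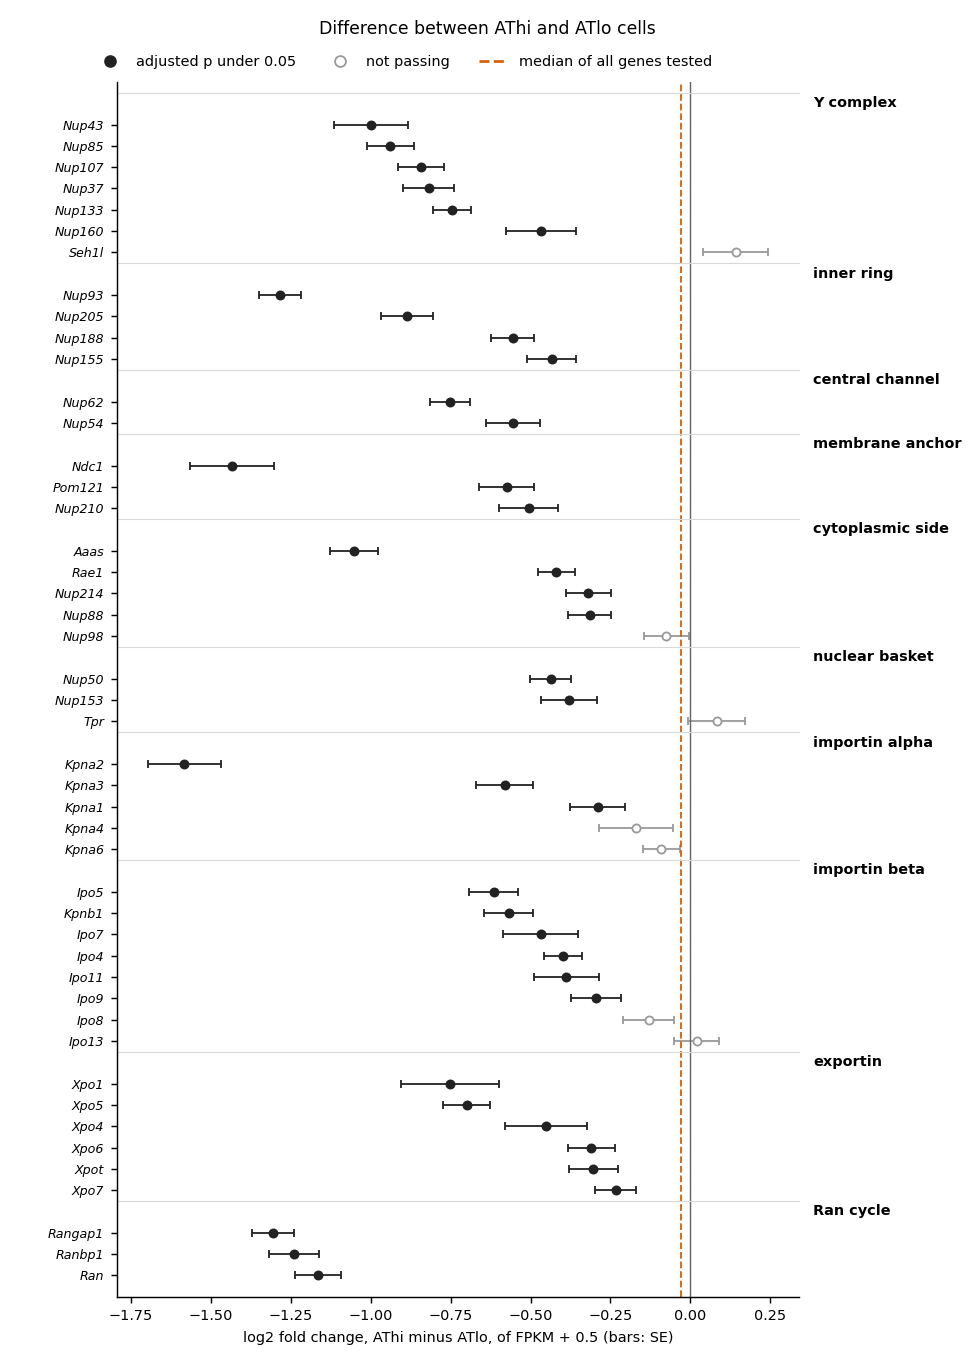
Log2 fold change of FPKM + 0.5, AThi minus ATlo, of the 46 members tested, by role, with bars of 1 SE, filled for an adjusted p under 0.05 and open otherwise. The 39 filled points all lie left of 0, from -1.58 for Kpna2 to -0.23 for Xpo7, and the dashed line at -0.03 is the median of all genes tested.

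Importin alpha proteins are the adaptors that recognise the classical nuclear localisation signal. Of the 6 genes, Kpna2, Kpna3 and Kpna1 fell, Kpna4 and Kpna6 did not pass, and Kpna7 was listed at 0.01 FPKM in both AThi libraries and at 0 in ATlo. Kpna2 showed the largest change of all members. It had 1.33 and 1.32 FPKM in AThi and 4.53, 4.71 and 5.72 FPKM in ATlo, or -1.58 ± 0.11 (SE, adjusted p = 0.000105). That is an AThi level of 26.6% of the ATlo level. By the implied depth and the exon length these are about 105 and 170 reads in AThi and 487 to 644 reads in ATlo.

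The absolute level of Kpna2 is uncertain. In GENCODE M21 a protein-coding gene listed as Gm10184 matches 95.8% of its transcript at 99.9% identity, and 4 processed pseudogenes match part of it. All 5 were at 0 or up to 0.02 FPKM, and how reads that map to several places were treated is not given in the sources used here. Kpna2-ps, which the symbol rule also took in, is a processed pseudogene that lies wholly over exons of Med20 on the other strand. It had 0.65 and 0.31 FPKM in AThi and 0.20, 0.34 and 0.21 FPKM in ATlo.

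Kpna4 was the most abundant importin alpha gene on average over the libraries, at 16.3 and 13.5 FPKM in AThi and 14.8, 17.4 and 18.4 FPKM in ATlo. Its groups overlapped, with a log2 fold change of -0.17 ± 0.12 (SE, adjusted p = 0.251) and a 95% interval of -0.45 to 0.10. Kpna3 is its closest relative and changed by -0.58 ± 0.09 (SE, adjusted p = 0.00187). Kpna1 was the last member to pass, at 7.36 and 6.75 FPKM in AThi and 8.19, 8.52 and 9.54 FPKM in ATlo, or -0.29 ± 0.09 (SE, adjusted p = 0.0266). Kpna6 had an interval of -0.23 to 0.05 and turned sign under upper-quartile scaling, at 0.01. Of the summed importin alpha FPKM, Kpna2 made up 2.71% and 2.99% in AThi and 7.95% to 8.91% in ATlo, and Kpna6 29.0% and 31.3% in AThi and 23.4% to 26.8% in ATlo.

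**Figure D5:**
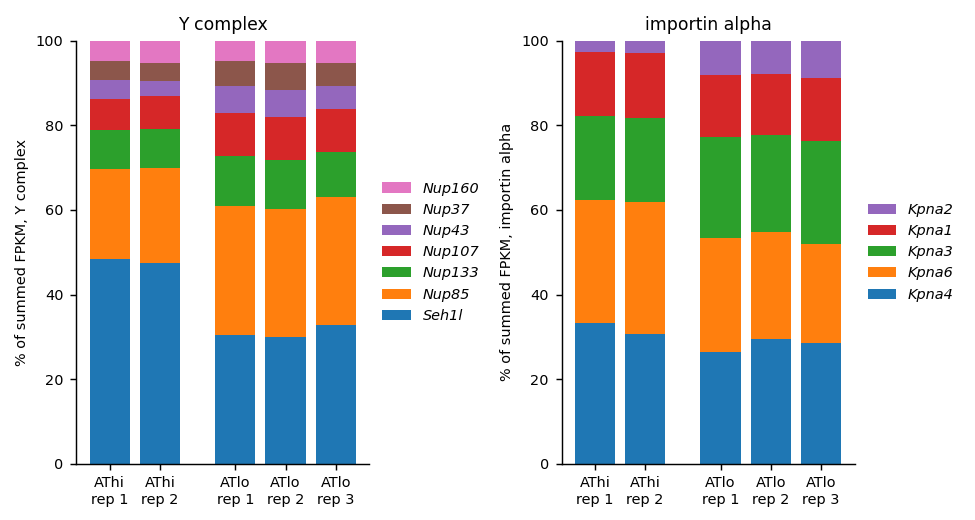
Share of each gene in the summed FPKM of 7 Y complex genes (left) and of importin alpha (right), in percent, per library. There are 2 AThi and 3 ATlo libraries, and the Y complex sum leaves out Sec13. Seh1l takes 48.5% and 47.4% of the Y complex sum in AThi and 30.0% to 32.9% in ATlo, and Kpna2 takes 2.71% and 2.99% of the importin alpha sum in AThi and 7.95% to 8.91% in ATlo (Kpna7, at 0.02% or less, is not drawn).

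Importin beta family proteins carry cargo through the channel, directly or through an adaptor. Of 8 genes, 6 fell and 2 did not pass, and without AThi replicate 2 the falls that passed were 3, those of Kpnb1, Ipo5 and Ipo4. Kpnb1, which encodes importin beta 1, the partner of importin alpha, was the most abundant of all members. It had 67.0 and 62.1 FPKM in AThi and 89.5, 97.4 and 101 FPKM in ATlo, or -0.57 ± 0.08 (SE, adjusted p = 0.00113). Ipo5, a carrier of ribosomal proteins and histones, fell most of the family, by 0.62 on the log2 scale. Ipo7 changed by -0.47 and Ipo4, which carries histones, by -0.40, while Ipo11 and Ipo9 changed by -0.39 and -0.30. In the counting region of Ipo4, 55.3% of the exon bases are also annotated to Gm49378 on the same strand, so its level is uncertain.

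Ipo8, the closest relative of Ipo7, was the first member not to pass. It was at 7.11 and 6.57 FPKM in AThi and 7.14, 7.37 and 8.12 FPKM in ATlo, or -0.13 ± 0.08 (SE, adjusted p = 0.212), with a 95% interval of -0.32 to 0.06. Ipo13, which carries cargo in both directions, had a log2 fold change of 0.02 and an interval of -0.15 to 0.18. Its sign depended on a library, at -0.03 without ATlo replicate 2. Whether Ipo8 and Ipo13 differed from the 6 genes that fell was not tested.

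All 6 exportin genes fell, but without AThi replicate 2 only Xpo5 and Xpo6 passed, and Xpo5 alone passed whichever library was left out. Xpo5, which exports microRNA precursors, was the most abundant on average. It had 18.8 and 18.1 FPKM in AThi and 28.0, 31.7 and 31.1 FPKM in ATlo, or -0.70 ± 0.07 (SE, adjusted p = 0.000414). Xpo1, also called CRM1, is the main exporter of proteins and a carrier of many regulators out of the nucleus. It had 18.6 and 15.5 FPKM in AThi and 25.0, 27.4 and 35.5 FPKM in ATlo, or -0.75 ± 0.15 (SE, adjusted p = 0.00606). ATlo replicate 3 stood above the other ATlo libraries in Xpo1, which had the widest spread among ATlo libraries of the members tested, with a coefficient of variation of 18.8%. Xpo4, Xpo6, Xpot and Xpo7 changed by between -0.45 and -0.23. Xpot carries transfer RNA and Xpo6 carries actin.

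The 3 Ran cycle genes fell together and by similar amounts. Ran binds GTP in the nucleus and GDP in the cytoplasm, where Rangap1 and Ranbp1 act to hydrolyse the GTP, and this gradient loads and unloads karyopherins. Rangap1 had 21.1 and 21.6 FPKM in AThi and 50.7, 54.2 and 55.8 FPKM in ATlo, or -1.30 ± 0.07 (SE, adjusted p = 3.92e-05). Ranbp1 had 40.4 and 35.7 FPKM in AThi and 85.6, 92.6 and 93.3 FPKM in ATlo, or -1.24 ± 0.08 (SE, adjusted p = 6.89e-05). Ran had 18.9 and 17.7 FPKM in AThi and 39.3, 44.3 and 41.3 FPKM in ATlo, or -1.16 ± 0.07 (SE, adjusted p = 6.64e-05). The AThi levels were 39.9%, 42.1% and 43.9% of those in ATlo. A processed pseudogene, Gm13461, matches 26.9% of the Ran transcript at 97.3% identity and was at 0.38 and 0.34 FPKM in AThi and 0.97 to 1.76 FPKM in ATlo. In Ranbp1, 16.9% of the exon bases are also annotated to Gm49776 on the same strand.

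The other genes of the pathway, taken from 4 lists, were lower in AThi in 30 of 49 cases tested, and 3 were higher, where 29.4% of all genes tested were lower and 22.2% higher. Of 6 other pore proteins 4 fell and 0 rose, led by Sec13, a Y complex subunit that also coats secretory vesicles, at 20.4 and 23.3 FPKM in AThi and 37.2, 39.1 and 39.9 FPKM in ATlo. Its log2 fold change was -0.81, and that of Nupl2 was -0.52. Nupl1, the earlier symbol of the channel gene Nup58, changed by -0.33, and its call was lost under upper-quartile scaling (adjusted p 0.0821). The call of Nupl1 was also lost without ATlo replicate 2 (adjusted p 0.0757) and without ATlo replicate 3 (adjusted p 0.0637). Ranbp2 and Gle1 did not pass, at 0.10 (adjusted p = 0.45) and -0.17 (adjusted p = 0.0714). Without AThi replicate 2 the calls of Ahctf1 and Nupl1 were lost, which left 2 of the 6. Of 9 other karyopherins and Ran regulators 5 fell and 1 rose. Among the falls, the call of Tnpo2 was lost with TPM, median centring and upper-quartile scaling (adjusted p 0.0519, 0.0542 and 0.128). Rcc1, the chromatin-bound exchange factor that loads Ran with GTP, changed by -1.45 ± 0.08 (SE, adjusted p = 4.82e-05). Cse1l, which returns importin alpha to the cytoplasm, changed by -1.02 ± 0.10 (SE, adjusted p = 0.000312). Ranbp6, an importin beta relative, rose by 0.34 ± 0.10 (SE, adjusted p = 0.0228). Without AThi replicate 1 its adjusted p was 0.138, and without ATlo replicate 2 it was 0.0727.

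Against the same shares of all genes, 29.4% lower and 22.2% higher, 12 of 17 mRNA export genes fell and 0 rose, with the RNA helicase gene Ddx39 at -1.24 and Nxt1, the partner of the export receptor Nxf1, at -0.78. Nxf1 itself did not pass, at -0.05 (adjusted p = 0.565), and its sign turned under upper-quartile scaling, at 0.05. Under the same scaling the calls of the mRNA export genes Mcm3ap and Thoc1 were lost (adjusted p 0.113 and 0.0627). Of 17 lamina and nuclear envelope genes 9 fell and 2 rose. Lmnb1, which encodes lamin B1, changed by -2.39 ± 0.12 (SE, adjusted p = 4.40e-05), and Banf1, whose product cross-links chromatin at the reforming envelope, by -1.35 ± 0.06 (SE, adjusted p = 3.53e-05). The rises were in Tor1aip1, a membrane protein that binds lamins, by 0.57 ± 0.07 (SE, adjusted p = 0.00076), and in Sun1, which links lamina and cytoskeleton, by 0.23 ± 0.06 (SE, adjusted p = 0.0158). The call of Sun1 was lost without AThi replicate 2 (adjusted p 0.084) and without ATlo replicate 2 (adjusted p 0.0672).

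Most falls among the members passed whichever library was left out. Of the 39 falls, 27 passed in each of the 5 fits that left out 1 library, among them all 3 Ran genes and all tested genes of the inner ring, the channel and the membrane anchor. Without AThi replicate 2 the calls of Nup214, Nup153, Ipo7, Ipo9, Ipo11, Kpna1, Xpo1, Xpo4, Xpo7 and Xpot were lost, with adjusted p-values of 0.0514 to 0.144. Without AThi replicate 1 those of Nup160, Xpo6 and Kpna1 were lost. Without ATlo replicate 2, Ipo9, Ipo11, Kpna1, Xpo7 and Xpot missed the threshold, and without ATlo replicate 3 this was so for Ipo9, Kpna1, Xpo4 and Xpo7. Upper-quartile scaling ended the calls of Xpo7, Xpot, Kpna1 and Ipo9. Nupl1, outside the rule, is not among the channel genes meant here. The share of all genes called lower that passed in each of the 5 fits was not counted. The 27 are therefore not read as a trait of the members.

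A further 2 rows had no role in this account. Nup210l, a relative of Nup210, was at 0.14 and 0.21 FPKM in AThi and 0.19, 0.41 and 0.33 FPKM in ATlo, and Nup62cl, a relative of Nup62, was at 0 in AThi and at 0 or 0.01 FPKM in ATlo. Of the 51 rows, 44 had no transcript elsewhere in GENCODE M21 with at least 95% identity over 200 bases. Besides those named above, Nup54, Xpot and Xpo4 each had a processed pseudogene matching 53.3%, 48.1% and 6.6% of the transcript.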

How the data were processed

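Messenger RNA of 2 AThi and 3 ATlo libraries, made with a stranded poly(A) kit per the labels' protocols, was analysed from 1 table of FPKM values that the authors deposited. Named in the submitters' processing notes are the builds GRCm38 and mm10, and, as tools, DESeq2, featureCounts, STAR and bcl2fastq. The sources used here do not give the annotation, the FPKM formula or the handling of reads that map to several places. Of 52459 rows, 28341 were 0 in all libraries and 26 carried a number or date in place of a symbol. Library depth was implied from the steps between low values of single-exon genes of at most 200 bases, of which 100% came to whole reads within 0.1 of a read. At these depths 3 reads on 1 kb correspond to 0.067 to 0.109 FPKM, for counting error only.

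Genes averaging 1 FPKM or more were tested with limma 3.58.1 (trend, two-sided) in R 4.3.3 on log2(FPKM + 0.5), with group as the only term and Benjamini-Hochberg adjustment over all 11397 genes. The pseudocount understates the change of low genes. Alternatives were other pseudocounts and filters, TPM, median centring, upper-quartile scaling, robust moderation, the replicate number as a block, and leaving out each library. Gene models and copies came from GENCODE M21 (BLAST+ 2.17.0, at least 95% identity over 200 bases) and promoters from RefSeq, with figures drawn in matplotlib 3.10.9.

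Members were taken by symbol, and values in every library are given for the 10 largest falls, the most abundant gene of each role, and the members on either side of the threshold. The members and all gene lists were chosen with earlier results of these data known. Seh1l's promoter is not shown.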

Additional observations from a re-analysis of the deposited data

How the results depend on the processing

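Of the members, 39 were lower in AThi as reported, and 35 to 39 under the settings that kept all libraries, with 29 to 39 when 1 library was left out. Members higher in AThi numbered 0 as reported, 1 with the replicate block and 0 to 1 when 1 library was left out, the exception being Seh1l in both cases. Over all genes, 3355 were lower and 2529 higher, against 1683 higher among the 7685 genes averaging 5 FPKM or more, where fewer genes were tested. Leaving out 1 library gave 2594 to 3251 genes lower and 1715 to 2467 higher. Of the other transport and envelope genes, 25 to 31 were lower and 1 to 3 higher when 1 library was left out, with 1 higher without ATlo replicate 2. Members whose sign turned did not pass in any setting: Nup98 was at 0.025 and Kpna6 at 0.012 under upper-quartile scaling, and Ipo13 ranged from -0.025 to 0.047 when 1 library was left out. The cause was not tested. Across the scalings the median change of all genes lay between -0.03 and 0.07.

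Same-numbered libraries share the first part of their code, but the labels do not say what it marks, so the numbers were not taken to pair them. Only 2 such pairs exist, with correlations of deviations of 0.20 and 0.30. The deviations of 2 AThi libraries are exact opposites, so these values are not separate measures and cannot settle whether the libraries are paired. With the replicate block 37 members were lower: Xpo7 and Kpna1 were lost (adjusted p of 0.0547 and 0.0556) and Seh1l was called higher at 0.24 (adjusted p of 0.037). ATlo replicate 3 has no partner, so it does not inform the group difference in that fit. With 2 and 3 libraries a group, and Kpna2 at about 105 reads in the shallowest library, changes near the threshold are the least certain.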
